A study of Mus musculus with 175 samples.

Results

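Transcription factor genes of the C/EBP and IRF families that act in myeloid cells were examined in single blood progenitors of the mouse fetal liver. The group was chosen by gene symbol and holds 8 of the 49585 mouse features that were counted, namely Cebpa, Cebpb, Cebpd, Cebpe and Cebpg of the C/EBP family and Irf1, Irf2 and Irf8 of the IRF family. Each symbol matched 1 feature. All cells came from E14.5 fetal livers of Runx1 P1-GFP::P2-hCD4/+ embryos of C57BL/6 crossed with ICR, in which GFP reports the distal promoter (P1) and human CD4 the proximal promoter (P2) of Runx1. The genotype field of the labels writes P2-GFP for the first reporter. The sort took CD41- CD150+ cells of the C-KIT+ progenitor compartment and divided them into CD34- megakaryocyte/erythroid progenitors (MEPs) and CD34+ common myeloid progenitors (CMPs), each with (P2+) and without (P2-) the human CD4 signal. There were 57 P2- and 48 P2+ MEPs, and 27 P2- and 43 P2+ CMPs. The labels call the CMPs low and high, which was read as P2- and P2+, and 1 P2- CMP carries a subtype label of MEP. The livers of 2 litters were pooled before the sort, so each population is 1 sample, its cells are not replicates, and no difference below has a test or a replicate check.

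C/EBP proteins are basic leucine zipper factors that bind DNA as pairs, with each other or with related zipper proteins. C/EBPα starts the granulocyte and monocyte programme in multipotent progenitors, C/EBPβ and C/EBPδ act in monocytes, macrophages and granulocyte production under demand, C/EBPε acts in late granulocyte maturation, and C/EBPγ lacks a strong activation domain and modulates its partners. IRF proteins bind DNA through a helix-turn-helix domain. IRF1 activates and IRF2 often opposes interferon-responsive genes, and IRF8 acts with PU.1, the product of Spi1, in monocyte and dendritic cell development.

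The study's cell filters left 56 P2- and 47 P2+ MEPs, and 27 P2- and 42 P2+ CMPs, with 295064 to 1540631 reads on mouse genes per cell. The reads of a population were summed and expressed as pooled counts per 1000000 mouse-gene reads (CPM), over totals of 30606262, 31573710, 18334696 and 36351033 reads. Values given as a row of 4 follow this order throughout, P2- before P2+ and MEPs before CMPs. Brackets after a CPM hold the exact 95% Poisson interval and those after a log2 ratio the exact 95% conditional binomial interval. Brackets after a share of cells hold the Clopper-Pearson interval. For shares, every cell was thinned to 100000 mouse-gene reads, since depth differed between populations. The libraries hold no molecular identifiers, so all intervals cover counting error only, and they do not cover the spread between cells or embryos.

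In outline, the IRF genes were higher in CMPs than in MEPs, while the C/EBP genes had no common order. Irf8 had 0 reads in P2- MEPs. Cebpb was lower in P2+ than in P2- MEPs, Cebpd was highest in P2+ CMPs, Cebpg had no difference of 2-fold unless single cells were left out, Cebpa was near the limit of detection, and Cebpe was read once.

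**Figure D1:**
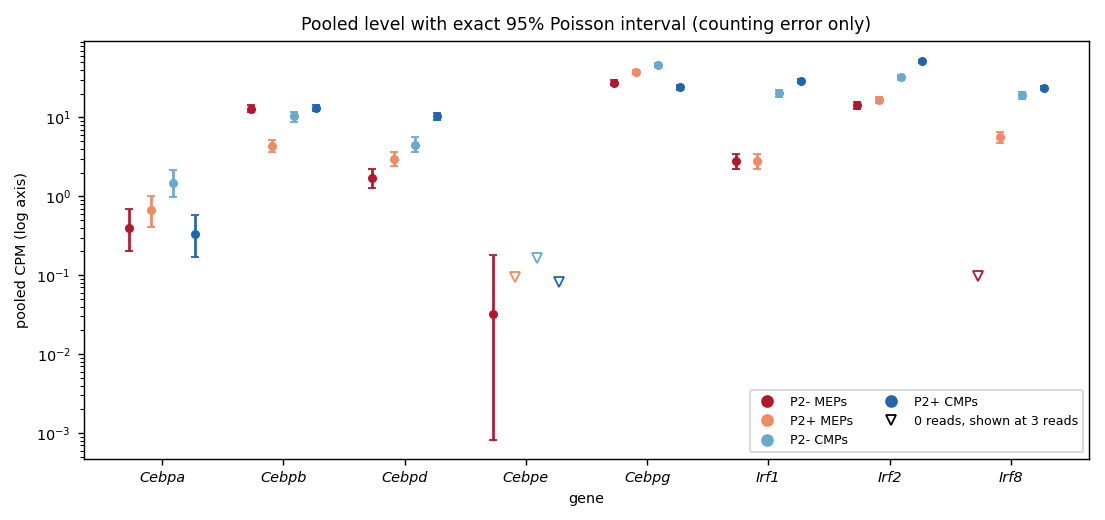
Pooled CPM (log axis) of each of the 8 genes in the 4 populations, with exact 95% Poisson intervals, and with open triangles, drawn at the level of 3 reads, for populations at 0 reads. Irf1, Irf2 and Irf8 stand higher in both CMP populations than in both MEP populations, and Cebpb has its lowest level in P2+ MEPs, at 4.34 CPM.

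Irf8 (ENSMUSG00000041515.9), of these 3 IRF genes the one most restricted to blood cells, lies on the plus strand of chromosome 8 of GRCm38 from 120736358 to 120756694, with 11 exon blocks. In P2- MEPs it had 0 reads, and 3 reads would have made 0.0980 CPM there. Its pooled level was 5.57 CPM in P2+ MEPs (4.78 to 6.46), 19.0 CPM in P2- CMPs (17.1 to 21.1) and 23.7 CPM in P2+ CMPs (22.1 to 25.3). The median cell was at 0 CPM in all 4 populations, the upper quartile was above 0 only in P2+ CMPs, at 30.4 CPM, and the highest P2+ MEP, P2- CMP and P2+ CMP reached 78.1, 181 and 140 CPM. Most cells therefore showed no Irf8 read, and the pooled levels rest on few cells. In P2- CMPs 1 cell held 192 Irf8 reads, 55.0% of the total. A read of Irf8 was found in 0 of 56 P2- MEPs (0%, 0 to 6.38, where 3 cells would make 5.36%), in 4 of 47 P2+ MEPs (8.51%, 2.37 to 20.4), in 4 of 27 P2- CMPs (14.8%, 4.19 to 33.7) and in 14 of 42 P2+ CMPs (33.3%, 19.6 to 49.5). The P2- MEPs were the only population in which the gene was not detected, and its interval overlapped those of P2+ MEPs and P2- CMPs and lay below that of P2+ CMPs. The intervals of both neighbouring pairs among the other populations overlapped.

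Pooled Irf8 was at least 56.9-fold higher in P2+ than in P2- MEPs, and the log2 ratio at least 5.83. It was at least 194-fold higher in P2- CMPs than in P2- MEPs. On the log2 scale this bound was 7.60, and 6.53 without the cell of highest CPM in each population. Between P2+ CMPs and P2+ MEPs the log2 ratio was 2.09 (1.85 to 2.33). Between P2+ and P2- CMPs it was 0.31 (0.13 to 0.50), and without the cell of highest CPM in each population it was 1.19. Cells with an Irf8 read were set beside all cells of their population at matched depth. All 4 P2+ MEPs with Irf8 also had reads of Klf1 and Gata1, the erythroid and megakaryocytic factor genes, as had 40 and 47 of all 47 P2+ MEPs. Spi1 was read in 3 of the 4 and in 21 of the 47, and the granule enzyme gene Mpo in 0 of the 4 and in 9 of the 47. Of the 14 P2+ CMPs with Irf8, 14 had Mpo and 14 had Spi1, each of which was read in 40 of all 42 P2+ CMPs. Gata1 was read in 2 of the 14 and in 17 of the 42, and Klf1 in 0 and 2. In P2- CMPs, where 14 of 27 cells had Klf1, the 4 cells with Irf8 were all among the 13 without it. These are counts over cells of 1 pool and carry no test, and wells with more than 1 cell were not tested for.

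Irf1 (ENSMUSG00000018899.16), an interferon-inducible activator gene, lies on the plus strand of chromosome 11 from 53770014 to 53778374, with 12 exon blocks, of which 3.4% of the bases overlap the antisense gene Gm17334. Its level was 2.81 CPM in P2- MEPs (2.25 to 3.47), 2.79 CPM in P2+ MEPs (2.24 to 3.43), 20.2 CPM in P2- CMPs (18.2 to 22.3) and 29.2 CPM in P2+ CMPs (27.4 to 31.0). The intervals of both MEP populations overlapped and stood below those of both CMP populations. The median cell was at 0 CPM in each population, and the highest cells reached 62.9, 67.6, 154 and 131 CPM in the same order. The log2 ratio of CMPs over MEPs was 2.84 among P2- cells (2.50 to 3.20) and 3.39 among P2+ cells (3.07 to 3.72), the latter 3.99 without the cell of highest CPM in each population. For P2+ over P2- it was -0.01 within MEPs (-0.46 to 0.43) and 0.53 within CMPs (0.36 to 0.71).

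Irf1 differed between CMPs and MEPs more in the share of cells with a read than in the level of those cells. It was read in 3 of 56 P2- MEPs (5.36%, 1.12 to 14.9), 3 of 47 P2+ MEPs (6.38%, 1.34 to 17.5), 9 of 27 P2- CMPs (33.3%, 16.5 to 54.0) and 19 of 42 P2+ CMPs (45.2%, 29.8 to 61.3). The interval of P2- MEPs lay below both CMP intervals, and that of P2+ MEPs reached into that of P2- CMPs. Among cells with an Irf1 read, without thinning, the median level was 42.6 and 44.2 CPM in P2- and P2+ MEPs, against 62.0 and 56.5 CPM in P2- and P2+ CMPs. The MEP medians rest on 3 and 4 cells.

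Irf2 (ENSMUSG00000031627.9), which encodes a factor that competes with IRF1 for the same sites, lies on the plus strand of chromosome 8 from 46739732 to 46847458, with 10 exon blocks that overlap no other gene. Its level was 14.2 CPM in P2- MEPs (12.9 to 15.6), 16.5 CPM in P2+ MEPs (15.1 to 18.0), 32.2 CPM in P2- CMPs (29.6 to 34.9) and 51.4 CPM in P2+ CMPs (49.1 to 53.8). The cells ranged from 0 to 86.7 CPM around a median of 8.34 in P2- MEPs, from 0 to 94.8 around 9.13 in P2+ MEPs, from 0 to 162 around 23.9 in P2- CMPs and from 0 to 185 around 38.6 in P2+ CMPs. The ranges overlapped throughout, and the medians had the order of the pooled levels. The log2 ratio of CMPs over MEPs was 1.18 among P2- cells (1.0 to 1.36) and 1.64 among P2+ cells (1.50 to 1.78). For P2+ over P2- it was 0.22 within MEPs (0.03 to 0.41) and 0.68 within CMPs (0.54 to 0.81), below 2-fold in both.

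The gene was widely read at matched depth, in 31 of 56 P2- MEPs (55.4%, 41.5 to 68.7), 24 of 47 P2+ MEPs (51.1%, 36.1 to 65.9), 20 of 27 P2- CMPs (74.1%, 53.7 to 88.9) and 31 of 42 P2+ CMPs (73.8%, 58.0 to 86.1). These intervals overlapped between all populations. The median CPM of the cells with an Irf2 read was 13.0, 20.8, 31.0 and 41.6 in the same order, the order of the pooled levels.

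**Figure D2:**
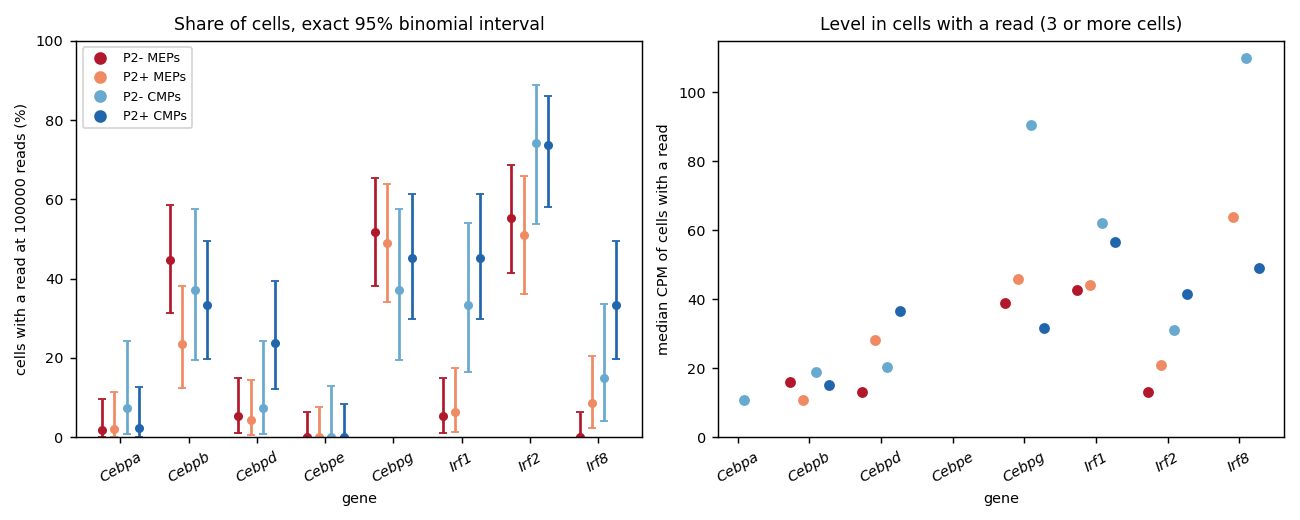
Left, percent of cells with at least 1 read of each gene at 100000 mouse-gene reads per cell, with exact 95% binomial intervals, by population. Right, median CPM of the cells with a read, without thinning, shown where 3 or more cells had one. In the left panel the shares with Irf1 and Irf8 are higher in CMPs, with intervals of P2+ MEPs and P2- CMPs that overlap, and the level of Irf2 in its positive cells climbs from 13.0 to 41.6 CPM in the right panel.

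Promoter sequence from RefSeq (GRCm38.p6) was found for 6 of the 8 genes, all but Cebpd and Cebpe. The stretches from 250 to 51 bases upstream of the first start site of the 3 IRF genes are shown because these genes were all higher in CMPs than in MEPs. Each is given on the strand of the gene. Capitals mark the letters TTCNNNGAA, the palindrome that STAT factors bind, and in Irf2 also AANNGAAA, the core of the element that IRF factors bind.
Irf1, chr11:53769764-53769963, plus strand: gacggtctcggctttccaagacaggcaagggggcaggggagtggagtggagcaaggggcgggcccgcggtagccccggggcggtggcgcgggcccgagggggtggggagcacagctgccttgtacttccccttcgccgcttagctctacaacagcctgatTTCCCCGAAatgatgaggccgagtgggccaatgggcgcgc
Irf2, chr8:46739495-46739694, plus strand: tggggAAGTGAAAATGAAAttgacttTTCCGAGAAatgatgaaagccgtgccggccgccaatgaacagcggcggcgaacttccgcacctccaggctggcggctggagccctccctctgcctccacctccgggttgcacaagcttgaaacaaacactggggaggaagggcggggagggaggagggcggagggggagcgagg
Irf8, chr8:120736108-120736307, plus strand: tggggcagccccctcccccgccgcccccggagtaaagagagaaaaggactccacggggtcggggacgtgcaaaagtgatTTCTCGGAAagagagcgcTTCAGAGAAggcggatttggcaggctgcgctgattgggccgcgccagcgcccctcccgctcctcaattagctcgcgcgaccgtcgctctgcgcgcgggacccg
In these letters TTCNNNGAA occurred once in Irf1, at bases 161 to 169 of the stretch, once in Irf2, at 27 to 35, and at 2 places in Irf8, at 80 to 88 and 98 to 106. Searched on both strands, it was present in 7.02% of all 32851 promoter windows of 250 upstream bases and in no such window of Cebpa, Cebpb or Cebpg. AANNGAAA was in 21.3% of all windows and, among the 6 genes, in Irf2 alone, at bases 6 to 13 and 12 to 19, which share 2 letters. The C/EBP-type letters TTGCNNAA were in 9.56% of all windows and also in that of Irf2 alone, in lower case at bases 133 to 140. None of these matches overlaps a match of another string. The further start sites listed for Irf1 and Irf8 had no match to any of them. The letters were searched after the sequences had been seen, and AANNGAAA took the place of a longer form of the IRF element that had been searched before it. A match describes the sequence only.

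Cebpb (ENSMUSG00000056501.3), a single-exon gene on the plus strand of chromosome 2 from 167688915 to 167690418, encodes a factor of monocytes and of granulocyte production and was lowest in P2+ MEPs. Its level was 12.9 CPM in P2- MEPs (11.7 to 14.3), 4.34 CPM in P2+ MEPs (3.64 to 5.13), 10.3 CPM in P2- CMPs (8.84 to 11.8) and 13.2 CPM in P2+ CMPs (12 to 14.4). The cell medians were 4.59, 0, 0 and 4.48 CPM and the highest cells 90.0, 65.4, 45.3 and 69.8 CPM in that order. P2+ MEPs thus stood below the other populations. The interval of P2- MEPs overlapped those of both CMP populations, which did not overlap each other. For P2+ over P2- the log2 ratio was -1.58 within MEPs (-1.87 to -1.29) and 0.36 within CMPs (0.12 to 0.61). For CMPs over MEPs it was -0.34 among P2- cells (-0.59 to -0.08) and 1.60 among P2+ cells (1.33 to 1.89).

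Reads of Cebpb were found in 25 of 56 P2- MEPs (44.6%, 31.3 to 58.5), 11 of 47 P2+ MEPs (23.4%, 12.3 to 38.0), 10 of 27 P2- CMPs (37.0%, 19.4 to 57.6) and 14 of 42 P2+ CMPs (33.3%, 19.6 to 49.5). The share was lowest in P2+ MEPs, and its interval overlapped those of the others. Without thinning 38, 14, 13 and 26 cells had a read, and the median level of these cells was 16.0, 10.8, 19.0 and 15.2 CPM. Of the exon bases of Cebpb 20.7% overlap Tmem189 on the other strand, and the counting did not use strand, so reads there could not be assigned. Tmem189 stood at 17.2, 27.0, 29.9 and 16.5 CPM in the same order of populations. The part of this overlap in the Cebpb levels was not tested.

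Cebpd (ENSMUSG00000071637.5), a single-exon gene on the plus strand of chromosome 16 from 15887286 to 15891031, had its highest level in P2+ CMPs. Its pooled level was 1.70 CPM in P2- MEPs (1.27 to 2.23), 3.01 CPM in P2+ MEPs (2.43 to 3.68), 4.53 CPM in P2- CMPs (3.61 to 5.61) and 10.3 CPM in P2+ CMPs (9.27 to 11.4). The median cell was at 0 CPM in all populations, and the highest cells reached 35.2, 37.8, 104 and 62.0 CPM. Only the intervals of P2+ MEPs and P2- CMPs overlapped between neighbours in this order. In P2- CMPs 1 cell held 66 of the 83 reads, and in P2+ CMPs the top cell held 17.4% of them. The log2 ratio of P2+ over P2- CMPs was 1.18 (0.84 to 1.55), and it was 3.19 without the cell of highest CPM in each population. That of P2- CMPs over P2- MEPs was 1.41 (0.90 to 1.94) and 0.20 without those cells. The other ratios were 0.82 for P2+ over P2- MEPs (0.32 to 1.34) and 1.77 for P2+ CMPs over P2+ MEPs (1.45 to 2.11).

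Cebpd was read in 3 of 56 P2- MEPs (5.36%, 1.12 to 14.9), 2 of 47 P2+ MEPs (4.26%, 0.520 to 14.5), 2 of 27 P2- CMPs (7.41%, 0.910 to 24.3) and 10 of 42 P2+ CMPs (23.8%, 12.1 to 39.5). Of these 10 P2+ CMPs, 6 also had Cebpb and 5 had Irf8, each of which was read in 14 of all 42 P2+ CMPs. Spidr, on the other strand, overlaps 15% of the Cebpd exon bases and stood at 18.6, 8.20, 14.1 and 12.8 CPM.

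Cebpg (ENSMUSG00000056216.9), the gene of the modulating partner C/EBPγ, lies on the minus strand of chromosome 7 from 35046422 to 35056573, with 3 exon blocks. It stood at 27.5 CPM in P2- MEPs (25.7 to 29.5), 37.7 CPM in P2+ MEPs (35.6 to 39.9), 46.0 CPM in P2- CMPs (42.9 to 49.2) and 24.1 CPM in P2+ CMPs (22.5 to 25.7). The cell medians were 10.1, 5.11, 0 and 5.76 CPM, and the highest cells 116, 201, 180 and 186 CPM. The population with the highest pooled level thus had the lowest median cell. A read was present in 51.8% of P2- MEPs (38.0 to 65.3), 48.9% of P2+ MEPs (34.1 to 63.9), 37.0% of P2- CMPs (19.4 to 57.6) and 45.2% of P2+ CMPs (29.8 to 61.3), and all of these intervals overlapped. Among cells with a read, the median was 90.5 CPM in P2- CMPs and between 31.7 and 45.8 CPM in the other populations. No ratio reached 2-fold, but that of P2+ over P2- CMPs was -1.04 without the cell of highest CPM in each population. For P2+ over P2- the log2 ratio was 0.45 within MEPs (0.33 to 0.58) and -0.93 within CMPs (-1.07 to -0.79), and for CMPs over MEPs it was 0.74 among P2- cells (0.60 to 0.88) and -0.65 among P2+ cells (-0.77 to -0.52).

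Cebpa (ENSMUSG00000034957.10), a single-exon gene on the plus strand of chromosome 7 from 35119293 to 35121928, was barely detected. It had 12 reads in 2 P2- MEPs, 21 reads in 1 P2+ MEP, 27 reads in 5 P2- CMPs and 12 reads in 2 P2+ CMPs. The levels were 0.392 CPM (0.203 to 0.685), 0.665 CPM (0.412 to 1.02), 1.47 CPM (0.970 to 2.14) and 0.330 CPM (0.171 to 0.577). In P2+ over P2- CMPs its log2 ratio was -2.16 (-3.27 to -1.13), from 39 reads, of which 11 of the 12 in P2+ CMPs came from 1 cell. Without the cell of highest CPM in each population it was -5.19 (-10.57 to -2.53), with 1 read left in P2+ CMPs. With 72 reads in 10 of 172 cells, no order of the populations beyond single cells could be given. Cebpe (ENSMUSG00000052435.6; minus strand of chromosome 14 from 54710360 to 54712174, with 2 exon blocks) had 1 read in 1 P2- MEP and 0 elsewhere, where 3 reads would have made 0.0950, 0.164 and 0.0825 CPM in P2+ MEPs and in the P2- and P2+ CMPs. Neither gene reached a mean pooled CPM of 1 over the populations.

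**Figure D3:**
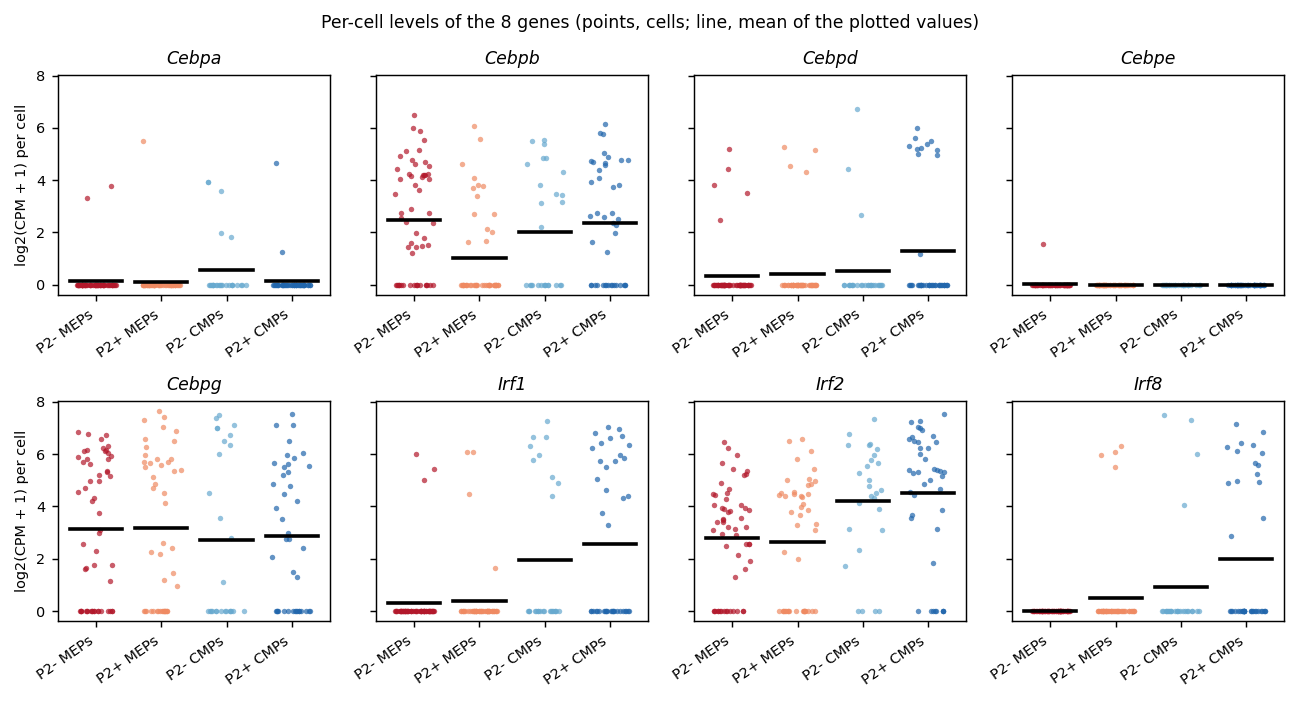
Level in every cell, as log2(CPM + 1), of the 8 genes in the 4 populations. Points are cells and the line is the mean of the plotted values. Irf1, Irf8, Cebpd and Cebpa have most cells at 0 in each population, Irf2 has most cells above 0, and Cebpb (P2+ MEPs and P2- CMPs) and Cebpg (P2- CMPs) have most cells at 0 in the populations named.

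Levels of different genes were compared as CPM per kilobase of exon. On this scale Cebpb and Cebpg together made up most of the C/EBP signal in each population. Cebpb took 60.9%, 27.1%, 40.7% and 55.0% of the family sum, with the populations ordered as above, and Cebpg took 34.7%, 63.0%, 48.8% and 26.9%. Cebpb was the leading C/EBP gene per length in P2- MEPs and P2+ CMPs, and Cebpg in P2+ MEPs. In P2- CMPs Cebpb and Cebpg stood at 6.82 and 8.18 CPM per kilobase of all exon bases, and at 8.60 and 8.29 CPM per kilobase of exon bases that overlap no other gene, so their order turned with the length used. The C/EBP sum over all exon bases was 14.1, 10.7, 16.8 and 15.9 CPM per kilobase. The sum of the 3 IRF genes was 2.62, 3.73, 12.1 and 17.6 on the same scale. Irf2 took most of it in MEPs, with 73.1% in the P2- cells and Irf1 and Irf8 sharing the rest of the P2+ cells at 18.8% and 21.2%. In CMPs Irf1 and Irf2 took close shares, 41.9% and 35.9% in P2- CMPs and 41.6% and 39.4% in P2+ CMPs.

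Over the 8 genes, the median number with a read per cell at matched depth was 1 in both MEP populations, 2 in P2- CMPs and 3 in P2+ CMPs. All 3 IRF genes were without a read in 4 of 27 P2- CMPs and 4 of 42 P2+ CMPs, against 24 of 56 P2- MEPs and 20 of 47 P2+ MEPs. Reads of 2 or more IRF genes were present in 2, 4, 9 and 21 cells, P2- before P2+ and MEPs before CMPs. Of the C/EBP genes, 2 or more were present in 17, 10, 7 and 11 cells in the same order. 

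**Figure D4:**
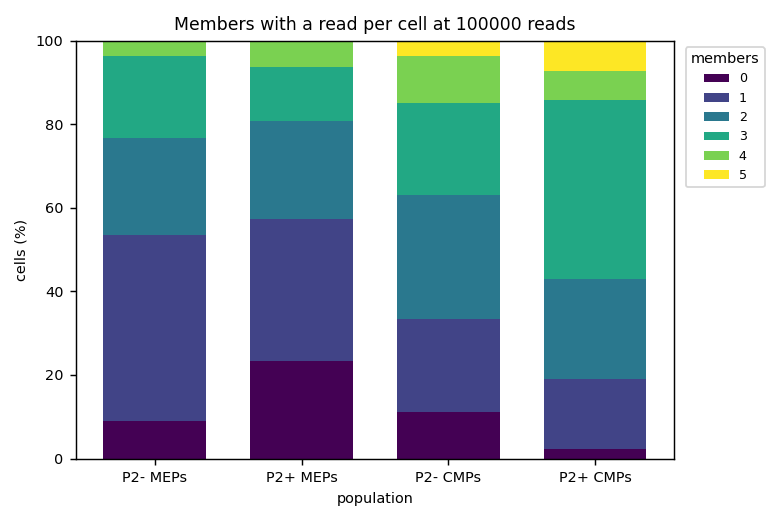
Percent of cells (bars from 0 to 100) in each population with reads of 0, 1, 2, 3, 4 or 5 of the 8 genes at 100000 mouse-gene reads per cell. The median is 1 gene in both MEP populations, and 2 and 3 in the P2- and P2+ CMPs.

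Each comparison was set beside all mouse genes with a mean pooled CPM of at least 1, a minimum that 6 of the 8 genes passed. A gene that is high in 1 population can pass such a minimum through that population, so the counts are descriptions. Between P2+ and P2- MEPs 1 of the 6 genes was at least 2-fold higher (Irf8) and 1 at least 2-fold lower (Cebpb), where 16.3% of 12278 genes were higher and 7.40% lower. Between P2+ and P2- CMPs 1 gene was higher (Cebpd) and 0 were lower, against 10.3% and 11.6% of 12587 genes. The count was 0 with equal weight for every cell, where Cebpd stood at 0.99, and 0 with a minimum mean pooled CPM of 10, and it was 3 without the cell of highest CPM in each population. In P2- CMPs over P2- MEPs 4 were higher (Cebpd, Irf1, Irf2 and Irf8) and 0 lower, against 24.5% and 9.66% of 12551 genes. In P2+ CMPs over P2+ MEPs 5 were higher (the same 4 and Cebpb) and 0 lower, against 18.1% and 11.5% of 12573 genes. Without the cell of highest CPM in each population, 3 were higher in P2- CMPs over P2- MEPs, with Cebpd at 0.20. The shares of all genes there were then 19.0% higher and 13.4% lower. The median log2 ratio of the 6 genes was 0.34, 0.45, 1.29 and 1.71 in the comparisons as listed, with Irf8 at its bound where P2- MEPs were at 0, and that of all genes was 0.06, -0.04, 0.13 and 0.01. Comparisons that share a population are not independent of each other.

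**Figure D5:**
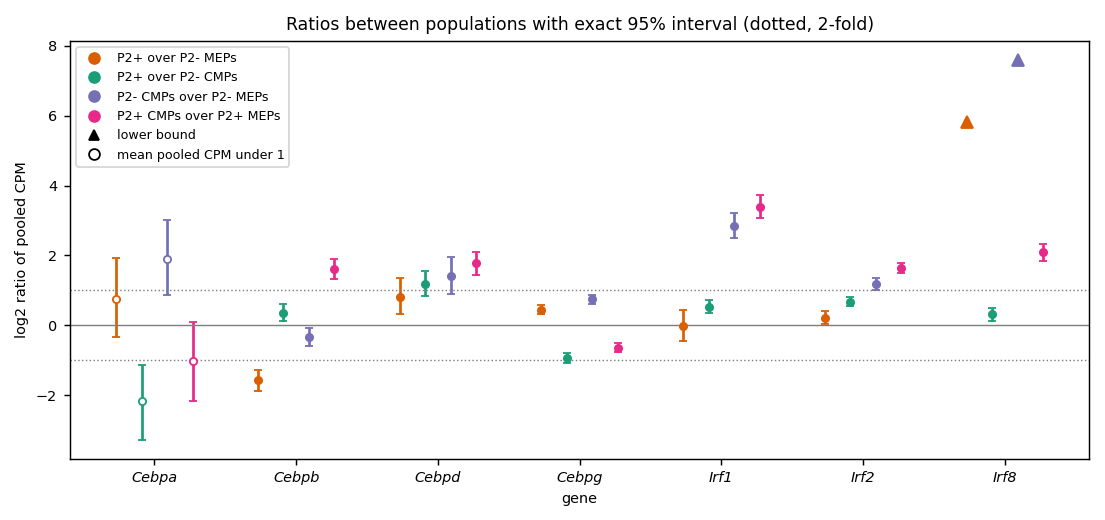
Log2 ratio of pooled CPM in the 4 comparisons for the 7 genes with a ratio, with exact 95% intervals. Triangles are lower bounds against a population at 0 reads, open circles a gene with a mean pooled CPM under 1 (Cebpa), and dotted lines 2-fold. Irf1, Irf2 and Irf8 lie above 2-fold in both comparisons of CMPs with MEPs, and Cebpb lies at -1.58 for P2+ over P2- MEPs.

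Genes around these factors were described by lists, whose counts stand against the same shares of all genes. These were 16.3% higher and 7.40% lower in P2+ over P2- MEPs, 10.3% and 11.6% in P2+ over P2- CMPs, 24.5% and 9.66% in P2- CMPs over P2- MEPs, and 18.1% and 11.5% in P2+ CMPs over P2+ MEPs. Of 15 interferon and IRF target genes, 12 passed the minimum. In P2- CMPs over P2- MEPs 9 of them were at least 2-fold higher and 0 lower, with a median log2 ratio of 1.46, against 24.5% and 9.66% of all genes. The most abundant were B2m (1.25) and Tapbp (1.02) of MHC class I presentation, the membrane protein gene Ifitm3 (7.04) and the immunoproteasome gene Psmb8 (3.41). Among the other 5 was Ifit1. In P2+ CMPs over P2+ MEPs 3 of 11 with a ratio were higher, namely Ifitm3 (2.80), Psmb8 (1.48) and Gbp7 (1.50). In P2+ over P2- MEPs 5 of 11 were higher, among them Ifitm3 (3.82, and 4.45 without the cells of highest CPM), Psmb8 (2.06), Psmb9 (2.11) and Irgm1 (1.02). In P2+ over P2- CMPs 0 of 12 were higher and 1 was lower, Ifit1, whose 396 reads all came from 1 P2- CMP. Ifit3 was at 0 reads in all populations.

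The interferon receptor, JAK and STAT genes stood closer together. All 9 passed the minimum, and none was past 2-fold between P2+ and P2- cells of either kind. In P2- CMPs over P2- MEPs only Stat2 was higher (1.16), and in P2+ CMPs over P2+ MEPs Ifnar1 was higher (1.04, and 0.89 without the cells of highest CPM) and Jak2 lower (-1.38). Among other IRF genes and genes of IRF2-binding proteins, 7 of the 8 reported passed. In P2- CMPs over P2- MEPs 2 were higher (Irf5, at least 5.51, and Irf7, 2.91) and 0 lower, and in P2+ CMPs over P2+ MEPs 1 was higher (Irf5, at least 7.15) and 2 were lower (Irf7, -1.93, and Irf2bpl, -1.28, the latter -2.10 without the cells of highest CPM). With 24.5% of all genes higher in the first of these comparisons, 2 of 7 is near the background. Irf5, which acts in macrophage activation, had 0 reads in both MEP populations, 4.47 CPM in 2 P2- CMPs and 13.5 CPM in 10 P2+ CMPs without thinning. The corepressor gene Irf2bp2 was at 58.5 CPM in P2- and 29.2 CPM in P2+ CMPs, a log2 ratio of -1.0. Irf7 was at -4.07 in P2+ over P2- CMPs, but all except 2 of its reads in P2- CMPs came from 1 cell. Without the cell of highest CPM in each population its log2 ratio was 0.28 there and -2.46 in P2- CMPs over P2- MEPs, so both directions turned, with 2 reads left in P2- and 5 in P2+ CMPs. The bound of Irf5 in P2- CMPs over P2- MEPs was then 1.52, and Irf2bpl stood there at -1.14, against 0.17 with all cells. Irf4 had 1 read in each MEP population.

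Of 10 genes for C/EBP partners and regulators, 8 passed. In P2+ over P2- CMPs 4 were lower and 0 higher, with a median of -0.92. They were Trib2 (a log2 ratio of at most -8.08), Tef (-1.01, and -0.89 without the cells of highest CPM), Nfil3 (-1.27) and Atf5 (-1.09). Trib2, a pseudokinase gene whose product promotes loss of C/EBPα protein, was at 22.4 CPM in P2- and 0 reads in P2+ CMPs. Nfil3 rested on 117 reads in 2 P2- CMPs and 96 reads in 2 P2+ CMPs. Atf5 rested on 60 reads in 7 P2- CMPs and 56 reads in 8 P2+ CMPs. In MEPs Trib2 was at 32.7 CPM (P2-) and 30.2 CPM (P2+). Trib1, which did not pass the minimum, went the other way in CMPs, with 1 read in P2- and 85 reads in 4 P2+ CMPs (5.42). Trib3, also under the minimum, had 0 reads in both CMP populations. In P2+ over P2- MEPs 3 were higher, namely Hlf (2.59), Nfil3 (at least 5.24) and Dbp (1.16), the last on few reads. Without the cell of highest CPM in each population Hlf was at 4.15, the bound of Nfil3, which had 117 reads in 3 P2+ MEPs, was 3.95, and Dbp was at -0.79. Hlf, the gene of a zipper factor of stem cells, was higher in CMPs than in MEPs by 6.40 among P2- cells (8.24 without the cells of highest CPM) and by 4.06 among P2+ cells.

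Granulocyte and monocyte genes that C/EBP factors are known to act on numbered 18, of which 8 passed. In P2- CMPs over P2- MEPs 7 of 8 were higher, led in abundance by Mpo (6.61), Lyz2 (at least 10.36), Prtn3 (3.22) and Csf3r (at least 8.33). Il6ra and Ms4a3, read in 1 and 2 P2- CMPs, were among the 7. In P2+ CMPs over P2+ MEPs 6 were higher and 1 was lower, Ms4a3. In P2+ over P2- MEPs 5 of 6 were higher, namely Mpo, Prtn3, Lyz2, Ms4a3 and Il6ra. Of these, Il6ra rested on 33 reads in 1 P2+ MEP and Ms4a3 on 116 reads in 2. In P2+ over P2- CMPs 1 was higher (Il6ra, 1.91) and 1 lower (Ms4a3, -7.62), both on few cells. Il6ra had 34 reads in 1 P2- CMP and was read in 9 P2+ CMPs, and Ms4a3 had 99 reads in 2 P2- CMPs and 1 read in 1 P2+ CMP. Without the cells of highest CPM the ratios were bounds, at least 5.0 for Il6ra and at most -5.20 for Ms4a3. Mpo stood at 2.22 CPM in P2- MEPs, 12.7 CPM in P2+ MEPs and 431 CPM in P2+ CMPs, with P2- CMPs between the last 2. Without the cell of highest CPM in each population its levels were 1.43, 8.10, 191 and 412 CPM. The genes of late granules, which C/EBPε acts on, were at or near 0, with at most 2 reads of Camp and of Lcn2 and 1 read of Ngp in all cells, and Ltf at 0.818 CPM in 1 P2- CMP and 2.67 CPM in 2 P2+ CMPs. Of 10 monocyte and dendritic genes linked to IRF8, 4 passed. Cst3 (1.20), Zeb2 (1.44) and Id2 (2.35) were higher in P2- CMPs than in P2- MEPs, where Id2 rests on 52 reads in 2 P2- CMPs. In P2+ CMPs over P2+ MEPs Cst3 (1.03) and Id2 (2.56) were higher and Naaa was lower (at most -4.89, from 77 reads in 2 P2+ MEPs), Zeb2 was at -0.77, and the median of the 4 was 0.13. Without the cells of highest CPM 1 of 3 was higher there and 0 lower, with Cst3 at 0.93 and Id2 at 4.26. The genes Ly86, Cx3cr1, Batf3 and Ctss were at 0 reads in all populations.

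Markers of other cells moved with these comparisons as follows. Klf1 was at 478 CPM in P2- MEPs, 87.4 CPM in P2- CMPs and 4.59 CPM in P2+ CMPs, where 1 cell held 82.6% of the reads and the level without it was 0.817 CPM. Of the 5 erythroid markers, Klf1 included, 4 were lower and 0 higher in each comparison of CMPs with MEPs, 3 were lower and 0 higher in P2+ over P2- MEPs, and 3 were lower and 1 higher (Hba-a1, 2.01) in P2+ over P2- CMPs. Hba-a1 had 2 reads in 1 P2- CMP and 16 reads in 5 P2+ CMPs, and without the cells of highest CPM its ratio was a bound of 1.0. Car2 was past 2-fold in none of these. Spi1 stood at 6.53, 28.0, 118 and 128 CPM. Of 7 macrophage markers Adgre1, C1qa, C1qb and C1qc were at 0 reads everywhere, and the summed list was between 0 and 104 CPM in any cell. Only Cd68, a lysosomal membrane protein gene, passed the minimum, at 1.18, 8.74, 6.16 and 5.89 CPM, and it was past 2-fold in P2+ over P2- MEPs (2.89) and in P2- CMPs over P2- MEPs (2.39). The 5 lymphoid markers had reads in 1 cell, all of Cd79a. Of 6 mast and basophil markers, Cpa3 and Hdc carried nearly all reads, and the summed list was 2.03, 6.75, 97.6 and 41.3 CPM. Of 6 granulocyte/monocyte markers, 2 had reads in P2- MEPs, 5 in P2+ MEPs and all 6 in both CMP populations, but several had hardly any. Elane, Csf3r and Ctsg had 1, 1 and 2 reads in P2+ MEPs. Elane and Ctsg had 2 reads each in P2- CMPs, and Ctsg had 3 in P2+ CMPs. The sum of the 6 ran from 9.41 CPM in P2- MEPs over 38.0 CPM in P2+ MEPs to 572 CPM in P2+ CMPs. Only Mpo, Prtn3 and Csf3r passed the minimum, at 431, 90.7 and 47.3 CPM in P2+ CMPs. The 5 megakaryocytic markers summed to 46.6 CPM in P2- MEPs, 441 CPM in P2- CMPs and 523 CPM in P2+ CMPs, with P2+ MEPs in between, with 0 reads of Pf4 and Gp9 in P2- MEPs. Of these, 5 of 5 were higher in P2+ over P2- MEPs, with Pf4 resting on 54 reads in 1 P2+ MEP, 4 of 5 were higher in P2- CMPs over P2- MEPs, and 2 were higher and 2 lower in P2+ CMPs over P2+ MEPs. The 5 stem and multipotent markers, among them Cd34, on which the sort divided MEPs from CMPs, summed to 13.7 CPM in P2- MEPs, 877 CPM in P2- CMPs and 1241 CPM in P2+ CMPs, again with P2+ MEPs in between, and 5 of 5 were higher in both comparisons of CMPs with MEPs. The part of these cells in the levels of the IRF and C/EBP genes was not tested.

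Other divisions of the same populations gave the following counts. In P2- CMPs, Cebpb and Cebpg were each read in 3 of 14 cells with Klf1 and in 7 of 13 without it, and Irf1 in 5 and 4. In P2+ CMPs, Cebpb was read in 5 of 10 cells with Gfi1 and in 9 of 32 without it, and Irf8 in 4 and 10. No gene followed Cebpb, Cebpg or Irf2 closely over the 172 cells. Of 11860 genes the most alike in Pearson's r of log2(CPM + 1) was Rab21 for Cebpb (0.31), Rp2 for Cebpg (0.31) and Tbc1d10c for Irf2 (0.37), all below the 0.4 set for naming a gene as alike. For Irf2 the value within populations was 0.21.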

How the data were processed

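Single cells were sorted into wells and sequenced from full-length cDNA by a Smart-Seq2 type protocol with ERCC spike-in RNA. The authors trimmed the reads (Trimmomatic 0.36), aligned them with STAR 2.4.2a to GRCm38 with the ERCC sequences, and deposited raw counts per gene and cell made with HTSeq 0.6.1p1 over GENCODE M12 exons, ignoring strand. Per cell they also deposited the percent of unmapped reads. Of uniquely mapped reads, 25.6% were ambiguous between genes and 7.40% fell on none, and the 5 tally rows holding them were left out. Cells with fewer than 250000 reads, over 25% unmapped reads or over 15% ERCC reads were removed, as in the study, which left 172 of 175. Reads were summed per population (the total per cell was 571806 to 2827426 reads). Ratios used no pseudocount, a population at 0 was set to 3 reads over the population, and none was given with 3 or fewer reads in both. No test was made, since each population is 1 sample, and the pooling was tested on simulated counts. The named genes are the 8 members, genes with r of at least 0.4 to a member read in at least 25% of cells, and of each list the genes past 2-fold, at most 4 by mean CPM. Genes at 0, markers and examples outside this rule were chosen after their values were seen. The members and lists were chosen with earlier results of these data known. A gene of the list of other IRF genes is not reported here and was left out of its counts. Positions came from GENCODE vM21 (GRCm38), a later release than the authors used. Alternatives were equal weight per cell, DESeq2 1.42.0 size factors, every deposited cell, leaving out the cell with the top CPM, totals without mitochondrial genes and Rn18s-rs5, leaving out the cell of conflicting label, other minima and other thinning depths. Python 3.11.15, pandas 2.3.3 and scipy 1.17.1 were used.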

Additional observations from a re-analysis of the deposited data

Results flagged for a closer look

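For Cebpb and Cebpg the ratio of P2+ over P2- had opposite directions in MEPs and CMPs, with intervals on opposite sides of 0. The log2 ratio of Cebpb was -1.58 in MEPs and 0.36 in CMPs, so that the CMP value minus the MEP value was 1.94. For Cebpg it was 0.45 in MEPs and -0.93 in CMPs, a difference of -1.39. These intervals cover counting error only. For Cebpg the median cell ran the reverse way, at 10.1 and 5.11 CPM in P2- and P2+ MEPs and 0 and 5.76 CPM in P2- and P2+ CMPs. The median cell of Cebpb followed the pooled order, at 4.59, 0, 0 and 4.48 CPM. The share of CMPs with a Cebpb read, however, was 37.0% in P2- and 33.3% in P2+ cells. Neither difference between the CMP and MEP ratios was tested, since each population is 1 sample.

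Reads were also present in a cell outside the comparisons. The P2+ MEP that was removed for 27.9% unmapped reads held 16 reads of Cebpb and 26 reads of Cebpg among 315322 reads on mouse genes, and the other 2 removed cells held 0 reads of the 8 genes. With every deposited cell included, no count of genes past 2-fold changed.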

How the results depend on the processing

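The number of genes past 2-fold was the same or within 1.5 times under each of the 8 alternatives in 3 of the 4 comparisons. For P2+ over P2- CMPs the main count of 1 became 0 with equal weight for every cell, where Cebpd stood at 0.99, and 0 with a minimum mean pooled CPM of 10. It became 3 without the cell of highest CPM (Cebpd and Irf8 higher, Cebpg lower at -1.04) and 2 with no minimum, which adds Cebpa as lower. No ratio of the 8 genes that was past 2-fold changed its direction where the alternative gave a ratio. Cebpa in P2+ CMPs over P2+ MEPs (-1.01, from 12 against 21 reads) had none without the cell of highest CPM, with 1 read against 0. Among ratios below 2-fold, Irf1 in P2+ over P2- MEPs ranged from -0.28 to 0.46, and Cebpa there from -0.79 to 1.28. Leaving out the cell of highest CPM also took Cebpd past 2-fold in P2+ over P2- MEPs (1.29) and below it in P2- CMPs over P2- MEPs (0.20). Of 167 ratios of single genes under an alternative, 149 lay within the interval of the main value and 18 outside, and of 96 shares 86 did and 10 did not. DESeq2 size factors moved the median log2 ratio of all genes to 0.11, -0.01, 0.07 and -0.08 in the 4 comparisons. Leaving out the cell of highest CPM per gene moved the share of higher calls among all genes past 2-fold from 47.0% to 61.9% in P2+ over P2- CMPs and from 71.7% to 58.6% in P2- CMPs over P2- MEPs. A minimum mean pooled CPM of 10 raised or lowered it by under 10 percentage points, and no minimum gave 59.4%, 51.6%, 64.0% and 57.2%. Leaving out the cell of highest CPM was also applied to the gene lists, a choice made after seeing the data, and 51 list counts stayed within 1.5 times and 5 did not. It turned the direction of Irf7 in P2+ over P2- CMPs (-4.07 to 0.28) and in P2- CMPs over P2- MEPs (2.91 to -2.46), and of Dbp in P2+ over P2- MEPs (1.16 to -0.79). It also took Irf2bpl in P2- CMPs over P2- MEPs from 0.17 to -1.14. Of the other IRF genes 1 was then higher and 1 lower in that comparison. No paired analysis was possible because no result comes from a test and each population is 1 sample.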
